A study of Homo sapiens with 15 samples.

Results

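The comparison described here set 3 arrays of induced cells at t = 48 against 3 arrays of control cells at t = 48, 6 of the 15 arrays of the series. They were picked out by their titles alone, but the comparison was chosen with earlier results of these data known. All arrays held RNA of IMR32, an established human neuroblastoma cell line carrying an MSX1 gene under doxycycline control, which the labels describe as introduced by transfection. Induced cells received doxycycline, and control cells were grown alike to t = 48 without it. The other 9 arrays held the same cells at t = 0 and, after induction, at t = 8 and t = 24, with 3 arrays each. The labels name no unit of time, and they do not say how many clones the line stands for. Every array carried the inducible construct, so doxycycline in cells without it was not measured, and effects of the drug and of MSX1 cannot be told apart. The labels do not say whether replicates were grown apart, so p-values here reflect array-to-array spread that may be no more than technical.

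MSX1 encodes a homeodomain transcription factor of the neural crest, limb and craniofacial mesenchyme that mostly acts as a repressor and can hold precursor cells in an undifferentiated state. Neuroblastoma is a childhood tumour of the sympathetic nervous system, whose cells keep the transcription factors and part of the secretory machinery of sympathetic neuroblasts. In the Notch pathway, ligands on one cell release the intracellular part of Notch receptors on its neighbour, which joins the DNA-binding protein RBPJ and Mastermind coactivators and switches on repressors of the HES and HEY families.

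The values are MAS5 signals, intensities on a linear scale that the authors brought to a common trimmed mean of 100.01 on every array. Array medians lay between 18.1 and 22.6. Fold changes are given as log2(signal + 5.16) in induced minus control cells, a scale that understates changes of dim genes. A gene was taken to differ where the adjusted p of limma, fitted to all 15 arrays and adjusted over 12880 genes, was under 0.05, and "rose" and "fell" stand below for a gene past that threshold with the higher or the lower mean in the induced arrays. Log2 values of arrays correlated at 0.978 to 0.985 within the induced group, at 0.980 to 0.988 within the control group, and at 0.96 to 0.979 between them. The bioC hybridisation control was weak on induced replicate 3 (138.5, against 495.2 to 580.2 on the other 5 arrays), as it was on t = 24 replicate 1, and results without these 2 arrays are called those without the weak arrays. The 18S rRNA control was higher in induced (150.2 to 172.9) than in control cells (76.7 to 94.9), and the ratio of 3' to 5' ACTB probe sets was 1.27 to 1.52 on induced and 1.22 to 1.31 on control arrays. The part of these differences in the results was not tested, other than by leaving out the weak arrays.

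Several markers of the line had strong signals in both groups. GATA3, a transcription factor of sympathetic neuroblasts, read 3609.4, 3161.7 and 3562.2 in induced and 3582.4, 3522.3 and 3348.4 in control cells. The neuronal RNA-binding protein gene ELAVL4 read between 1170.8 and 1466.7, and MYCN, amplified in this line, between 4826.6 and 5715.9 on the 6 arrays. Summed over the 10 of 12 identity markers tested, signals reached 14291 to 15880 on induced and 13513 to 14021 on control arrays. TH was not among those tested. Of the 10 markers tested 4 rose and 1 fell, and they are described with their families below. Fibroblast and stromal markers summed to 2111 to 2161 on induced and 1568 to 1686 on control arrays over 9 of 12 members. LUM, COL3A1 and PDGFRA of that list rose, the last with an adjusted p of up to 0.123 when 1 array was left out, while DCN (11.3 to 25.3), TAGLN (13.4 to 33.2), PDGFRB and ACTA2 did not pass. The sums over the 1 Schwann cell, 2 epithelial and 3 blood and endothelial markers tested stayed under 90 in every array of both groups, and 0 of them passed. These lists had 10, 9 and 12 entries, so most of their members were not tested. The 5 of 11 melanocyte and muscle markers tested summed to 323 to 348 on induced and 332 to 390 on control arrays. Of these 5, CKM fell (-1.16).

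In all, 1101 of 12880 genes differed (8.55%), 678 of them higher (5.26%) and 423 lower (3.28%) in induced cells. Counts of rises and falls in the lists below are to be read against these shares. Over all genes the median log2 fold change was -0.01, with 6170 genes above and 6710 below 0. The changes were mostly small: the median was 0.63 among the genes that rose and -0.48 among those that fell, 169 genes changed at least 2-fold (1.31%), and at least 4-fold changes numbered 21 higher and 1 lower. Values of the groups did not overlap for 1100 of the 1101 genes, and for 4024 of all genes tested (31.2%). The balance of rises and falls depended on how arrays were scaled. Centring each array on the median of all probe sets gave 361 higher and 205 lower, on the median of the kept probe sets 523 and 506, and on that of the genes tested 535 and 631, while quantile normalization gave 635 and 474. With the first of these, AURKB, CENPA, CRMP1, FLRT3, FOXM1, HAND1, KDM3A, KDM5B, KIF2C, NCAM1, NFASC, NSDHL, PLAGL1, SC5D and SPRED2, all named below, missed the threshold, as did the array-dependent ADAMTS5, ATR, BBIP1, CCNG2, CHRNA5, CHRNB4, CTNND2, CYP26B1, EBF3, H1-2, ID4, LHX9, MAML2, MYT1, NOG, OCLN, PDGFRA, POLA2, SPHK1, SSBP2 and TFAM. In a fit on the 6 arrays alone, which called 617 genes, it was missed by ADAMTS9, AURKA, AURKB, CENPA, CHEK1, CHRNA3, CKM, CRMP1, EPHB1, FLRT3, FOXM1, GPC3, KDM3A, KDM5B, KIF2C, MCM5, NAV2, PKM, SPRED2 and UBE2C and by the array-dependent ADAMTS5, ATR, BBIP1, C1QTNF1, CCNG2, CHRNA5, CTNND2, CYP26B1, KLHL34, MAML2, MSX1, NOG, OCLN, PDGFRA, SPHK1, SSBP2 and TFAM. When each of the 6 arrays was left out in turn, 476 of the 1101 calls were kept every time, 328 higher and 148 lower, and 625 were lost at least once. The number of calls was then between 625 (without induced replicate 3) and 816 (without induced replicate 1). Genes named below as changed belong to the 476 unless they are called array-dependent, which means that their adjusted p reached the value given when 1 array was left out.

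**Figure D1:**
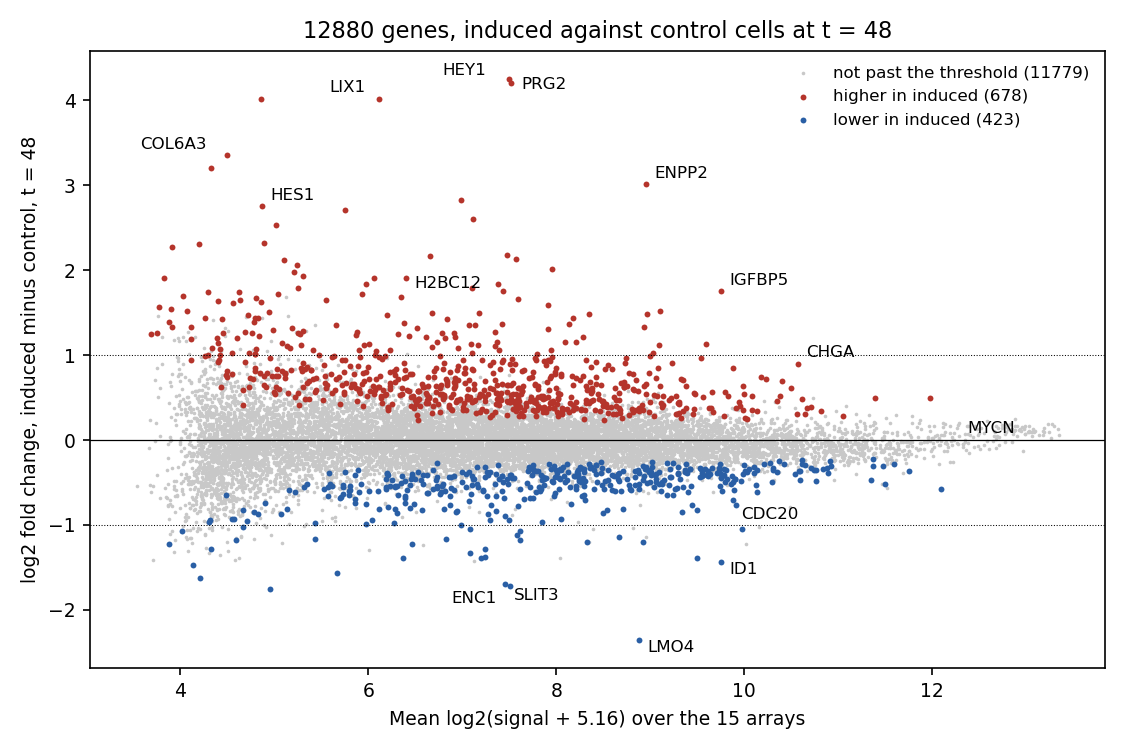
Each dot is 1 of 12880 genes, placed by its mean log2(signal + 5.16) over the 15 arrays and by its log2 fold change, induced minus control at t = 48, with dotted lines at 2-fold. Red dots (678) were higher and blue dots (423) lower by limma, and the large changes lie mostly above 0.

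Sensitivity to change differed with signal level. Of the 3220 genes with the lowest mean signals 136 rose and 32 fell (5.22%), with a median size of 0.95 among those called. Of the 3220 with the highest 120 rose and 159 fell (8.67%), with a median size of 0.43. The filter asked for the array median on at least 3 of the 15 arrays, and the mean signal included the induced arrays. A dim gene could thus be kept only through the group where it was high. The part of this in the balance of rises and falls among dim genes was not tested. In 42 of the genes that rose the signal lay under the array median on every control array and at or over it on every induced array, a pattern that 64 of all genes showed. They included the Notch effector gene HES1, the collagen gene COL6A3, MYOCD, which encodes a coactivator of smooth muscle genes (1.75), the potassium channel gene KCNMA1 and FAM30A (1.72), the last, MYOCD and the next gene being picked after their values were seen. The reverse pattern was seen in 9 genes that fell, such as SOWAHA (-0.96), and in 44 of all genes. A gene of either pattern met the filter through the 3 arrays of the group where it was high. These counts therefore describe the kept genes and are no separate evidence of a change.

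MSX1 was examined first, since it is the gene that the labels name as introduced. It read 96.9, 67.7 and 84.9 in induced and 46.5, 50.2 and 55.5 in control cells, so the groups did not overlap, and it passed with a log2 fold change of 0.65 (SE 0.15, adjusted p = 0.0165). The call was array-dependent (adjusted p up to 0.0657). The other probe set of the gene gave -0.42 and did not pass. Whether either probe set lies in the introduced gene is not known here, so the amount of induced MSX1 cannot be read from these values. Of the 6 distal-less and Msx homeobox genes tested, DLX5, a homeobox gene of craniofacial and forebrain development, also rose, from 86.3, 98.1 and 95.7 in control to 147.2, 145.5 and 162.7 in induced cells (0.67, SE 0.10, adjusted p = 0.000929). MSX2 (0.27), DLX6 (0.52), DLX3 (-0.39) and DLX4 (-0.28) did not pass.

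Among the effectors of Notch signalling, HEY1 had the largest log2 fold change of the genes tested, while most others did not pass. It read 38.2, 40 and 43.4 in control and 997.7, 813.5 and 800.8 in induced cells (log2 fold change 4.25, SE 0.17, adjusted p = 2.19e-08), and its other probe set gave 4.65. HES1 read 1.7, 6.7 and 7.4 in control and 60.9, 61.9 and 65.6 in induced cells (2.75, SE 0.32, adjusted p = 0.000192), and its other probe set gave 2.15. These were 2 of the 7 Notch effectors tested; HES6 (-0.60), HES7 (-0.52), HES4 (-0.24), HEYL (-0.10) and NRARP (0.01) did not pass, and the list median was -0.10. Among 22 receptors, ligands, proteases, glycosyltransferases and coactivators, 3 rose and 1 fell, with a median of 0.14. ADAM10, the protease that makes the first activating cut in Notch receptors, rose from 844, 809.6 and 815.9 to 1235.3, 1204.7 and 1106.1 (0.52), and its other 2 probe sets also rose. The Mastermind genes MAML3 (0.78) and MAML2 (0.67, array-dependent, adjusted p up to 0.173) rose, though 2 further probe sets of MAML3 gave -0.15 and 1.45 and did not pass. MFNG, a fucose-modifying glycosyltransferase that tunes the response to ligands, fell from 211.3, 217.5 and 247.4 to 145.9, 156.2 and 147.5 (-0.57). The receptors NOTCH1 (-0.24), NOTCH2 (-0.26), NOTCH3 (-0.34) and NOTCH4 (-0.52) and the ligands JAG1 (0.72), JAG2 (-0.37), DLL1 (0.22) and DLL3 (-0.09) did not pass, nor did DLK1, a non-canonical ligand (0.44), and LFNG (1.28), whose control values of 2.3, 29.1 and 28.3 were spread widely.

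The bases upstream of HES1 are shown because its promoter is a known target of RBPJ, with the RBPJ letters GTGGGAA, searched on both strands, in capitals. The stretch is chr3:194135998-194136147 of GRCh38.p14, plus strand, from RefSeq, and it ends at the base before the annotated start, so the match spans -85 to -79. These letters occurred in 5.9% of the 10428 tested genes with a promoter of 300 bases in that table, in 5.12% of those that rose and in 8.41% of those that fell.
HES1: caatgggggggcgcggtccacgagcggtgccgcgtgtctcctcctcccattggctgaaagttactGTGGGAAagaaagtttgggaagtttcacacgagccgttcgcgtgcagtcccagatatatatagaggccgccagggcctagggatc
A match of letters is a description of the sequence and not a measured site.

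Several other large rises started from low control signals. PRG2, which encodes the major basic protein of eosinophils, read 60.3, 55.1 and 52.2 in control and 1139.7, 1147 and 1083.4 in induced cells (4.21, SE 0.15, adjusted p = 1.67e-08). LIX1 read 18.7, 9.5 and 14.4 against 287.2, 313.1 and 309.9 (4.02, SE 0.19, adjusted p = 6.8e-08). The cell junction genes PLEKHA6 (4.01) and CGNL1, which encodes paracingulin (2.83), rose among 25 junction scaffold genes, of which 4 rose and 0 fell; the other probe set of CGNL1 gave 0.53 and did not pass. In each of these genes every induced array lay far above every control array. Of the other junction genes, OCLN (0.51, adjusted p up to 0.0538) and CTNND2 (0.54, up to 0.155) were array-dependent, and the count of rises was 2 without induced replicate 2 or 3 or control replicate 1.

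ENPP2, which encodes autotaxin, the enzyme that makes lysophosphatidic acid, read 305.6, 403.3 and 587 in control and 3503, 3352.8 and 3374.2 in induced cells (3.02, SE 0.19, adjusted p = 1.38e-06). Its control values were the more spread of the groups. Of 11 lysophospholipid genes the sphingosine-1-phosphate receptor gene S1PR3 also rose (0.65), though its other probe set gave -0.38, and the kinase gene SPHK1 fell (-0.51, array-dependent, adjusted p up to 0.106). The receptors for the product of autotaxin, LPAR1 (-0.13), LPAR2 (-0.27) and LPAR3 (0.05), did not pass.

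Further large rises fell outside the signalling lists. PODXL, a sialomucin of the cell surface, rose from 48.3, 52.2 and 85.5 to 340.3, 256.1 and 273.1 (2.17). ABCA1, the cholesterol efflux transporter, rose on both of its probe sets, from 13.2, 26 and 25.3 to 88.2, 106.9 and 116.9 on the brighter (2.07). The kappa opioid receptor gene OPRK1 (1.98), SRGAP3, which encodes a GTPase-activating protein of the Slit-Robo pathway (1.93), CT75 (2.01) and NBPF4 (2.12) rose as well. WDR86 rose from 1.2, 2.2 and 7.1 to 20.5, 26.1 and 32.6 (1.91, adjusted p = 0.0102). SVIL, which encodes the actin-binding protein supervillin and was picked after its values were seen because of its promoter, rose from 154.5, 171.3 and 165 to 506.2, 483.9 and 515.7 (1.59, SE 0.09, adjusted p = 8.24e-07).

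The promoter of SVIL is shown for the letters TAATTG, the core that Msx homeodomains prefer, which stand in it on the opposite strand as CAATTA, in capitals, at -32 to -27. The stretch is chr10:29736937-29737036 of GRCh38.p14, minus strand, from RefSeq.
SVIL: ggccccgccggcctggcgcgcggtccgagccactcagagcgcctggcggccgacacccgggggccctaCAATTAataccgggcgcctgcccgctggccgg
On either strand these letters occurred in 4.2% of the promoters of all genes tested, in 6.26% of those of the genes that rose, in 10.0% of those of the 100 with a promoter that rose at least 2-fold, and in 3.48% of those of the genes that fell.

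**Figure D2:**
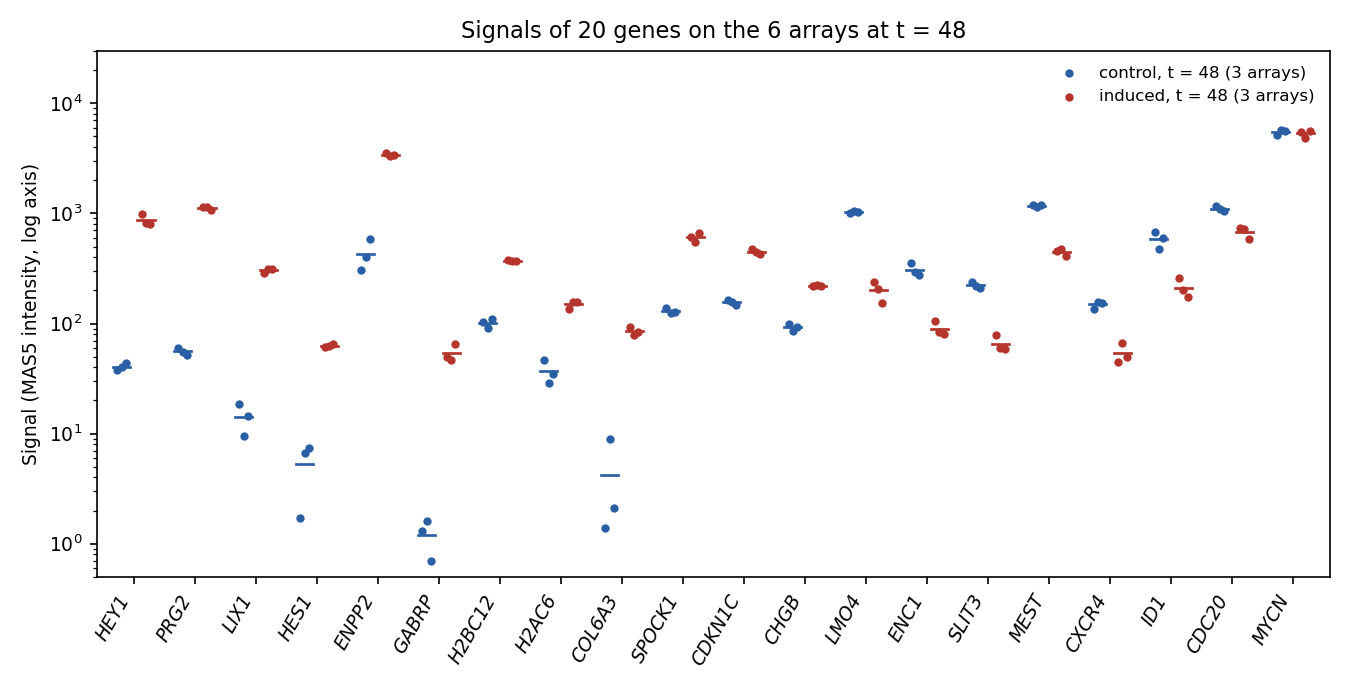
Signals of 20 genes on a log axis, with each dot 1 of the 6 arrays at t = 48 (blue control, red induced) and each bar the mean of 3. HEY1 lies at 38.2 to 43.4 in control and 800.8 to 997.7 in induced cells, LMO4 lies the other way round, and the 2 groups of MYCN overlap.

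The steepest fall was that of LMO4, a LIM-only adaptor that bridges LIM-domain complexes on DNA. It read 1006.4, 1048.8 and 1022.7 in control and 240.2, 207.1 and 152.8 in induced cells (-2.35, SE 0.14, adjusted p = 8.24e-07), and its other 3 probe sets, at -1.18, -2.10 and -1.10, fell too. Of 15 LIM-domain factors and cofactors 2 fell and 3 rose. ISL1, a LIM homeobox factor of sympathetic and motor neurons, fell from 521.7, 504.2 and 557.4 to 312, 199.6 and 185.7 (-1.20, SE 0.24, adjusted p = 0.0083). LHX8 rose (0.69), as did LHX9 (0.48, adjusted p up to 0.0826) and SSBP2 (0.49, up to 0.142), both array-dependent, so that 1 rise was left without induced replicate 1 or 2 or control replicate 2. LMO1 (-1.16) and LMO3 (-0.62) were lower in induced cells without passing.

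Other falls came from many functions. The kelch-repeat gene ENC1 fell from 353.1, 295.8 and 276.6 to 106.2, 83.7 and 80 (-1.72), and the chemokine receptor gene CXCR4 from 136.8, 157.4 and 152.6 to 45.1, 67.2 and 49.9 (-1.39), in each case on every kept probe set. ARHGAP28, which encodes a GTPase-activating protein, fell from 71.2, 60.2 and 65.7 to 22.6, 12.9 and 22.2 (-1.56). PAG1, a membrane adaptor that recruits the kinase CSK, fell on all 3 probe sets (-1.33 on the brightest). DOK5 (-1.22) and PRSS12, which encodes the synaptic protease neurotrypsin (-1.14), fell on both of theirs. The tetraspanin gene CD9 (-1.18), the alpha-2A adrenoceptor gene ADRA2A (-1.28), the calcium-binding protein gene TESC (-1.12), C11orf96 (-1.20) and the muscle creatine kinase gene CKM (-1.16) also fell. C20orf203 (-1.75) and TECTB (-1.62) were dim, with induced signals of 4.2 to 17.4 and 3 to 6.6, and the call of C20orf203 was lost without the weak arrays. AFF3, a component of transcription elongation complexes, fell from 207.9, 211.9 and 234.1 to 68.1, 76.2 and 99.1 (-1.38), though its other 2 probe sets did not pass, and SVEP1 fell (-1.17). SLAMF9 (-1.47, adjusted p up to 0.0914), KLHL34 (-1.28, up to 0.0551), RAB4B (-1.23, up to 0.145) and C1QTNF1 (-1.18, up to 0.079) were array-dependent.

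Genes of cell division were lower as a group. Of 54 G2 and mitosis genes 30 fell and 0 rose, and all 54 had a log2 fold change below 0, with a median of -0.36, against 3.28% of all genes that fell and a median of -0.01. CDC20, an activator of the anaphase-promoting complex, fell from 1163, 1105.4 and 1053.2 to 734.4, 716.3 and 587.1 (-0.71, SE 0.12, adjusted p = 0.00332). CDCA8, a subunit of the chromosomal passenger complex, fell from 495.1, 476.8 and 435.2 to 308.2, 314 and 297.1 (-0.60, SE 0.08, adjusted p = 0.000501). PLK1, a kinase of mitotic entry, fell from 663.9, 669.9 and 558.5 to 415.5, 449 and 374.1 (-0.60). In each of these genes the groups did not overlap.

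The kinase genes AURKB (-0.65) and AURKA (-0.41), the kinesin genes KIF23 (-0.48) and KIF2C (-0.43), the separase gene ESPL1 (-0.42), UBE2C (-0.38), FOXM1, a transcription factor of mitotic genes (-0.36), and CENPA (-0.34) fell as well. MKI67 (-0.20), CDK1 (-0.24), CCNA2 (-0.25) and BUB1B (-0.27) did not pass. The count of 30 depended on the arrays, on scaling and on the fit. It was 13 without induced replicate 3, 16 and 14 without control replicates 2 and 3, 19 without the weak arrays, and 8 with arrays centred on the median of all probe sets, where all 54 values stayed below 0. It was 8 in the fit on the 6 arrays alone, 18 with no filter on low signal and 9 at an adjusted p of 0.01. With the second-brightest probe set, which fewer genes have, it was 6. With arrays centred on the genes tested it was 35, and with a variance trend and robust fit 36.

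Genes of the G1-S transition and of DNA replication followed, with 15 falls and 0 rises among 51 and a median of -0.27. MCM10, a replication initiation factor, fell from 665.7, 635.7 and 598.5 to 461.3, 453.2 and 452.1 (-0.47, SE 0.07, adjusted p = 0.000825), though its other 2 probe sets missed the threshold at -0.16 and -0.11. The helicase subunit gene MCM5 fell (-0.39), and so did the array-dependent POLA2, a subunit of the primase complex (-0.58, adjusted p up to 0.0564). MCM10 and MCM5 were the 2 genes of the list called under every omission. The count was 10 without induced replicate 1, between 4 and 7 without induced replicate 2 or 3 or control replicate 1 or 2, and 2 without control replicate 3. It was 3 with arrays centred on all probe sets and 2 in the fit on the 6 arrays alone. Of 28 DNA repair genes 4 fell, among them the checkpoint kinase genes CHEK2 (-0.55) and CHEK1 (-0.41), and 1 rose, ATR (0.35, array-dependent, adjusted p up to 0.0559). These calls were 17.9% of the list, against 8.55% of all genes. The falls numbered 2 without induced replicate 3 or control replicate 2.

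Of 18 inhibitors of the cell cycle and growth arrest genes 3 rose and 0 fell. CDKN1C, an imprinted gene that encodes the cyclin-dependent kinase inhibitor p57, rose from 163.7, 156.4 and 147 to 470.3, 441.9 and 425.7 (1.49, SE 0.09, adjusted p = 9.47e-07), and its other 3 probe sets rose as well. GAS1, a membrane protein first found in arrested cells, rose from 247.7, 241.8 and 261.1 to 522.1, 449.2 and 406.4 (0.86). CCNG2 (0.70) was array-dependent (adjusted p up to 0.128). The inhibitor genes CDKN1A (-0.01), CDKN1B (0.10), CDKN2A (-0.09) and CDKN2D (0.03) did not pass.

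The promoters of CDC20 and PLK1 are shown because they hold the letters of both elements through which the DREAM complex and NF-Y are known to act on mitotic genes, the CHR element (TTTGAA, or TTCAAA on the opposite strand) and the CCAAT box (CCAAT), in capitals. The CDC20 stretch is chr1:43358781-43358980 and the PLK1 stretch chr16:23678739-23678888 of GRCh38.p14, both on the plus strand, from RefSeq, and each ends at the base before the annotated start.
CDC20: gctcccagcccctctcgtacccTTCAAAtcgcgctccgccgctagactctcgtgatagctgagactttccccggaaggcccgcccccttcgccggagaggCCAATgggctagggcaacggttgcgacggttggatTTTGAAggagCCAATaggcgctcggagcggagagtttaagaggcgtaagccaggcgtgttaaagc
PLK1: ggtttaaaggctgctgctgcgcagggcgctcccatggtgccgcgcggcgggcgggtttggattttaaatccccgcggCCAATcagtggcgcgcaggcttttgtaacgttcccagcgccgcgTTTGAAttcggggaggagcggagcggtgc
In CDC20 the CHR letters start at -178 and -65 and the CCAAT letters at -100 and -55. In PLK1 the CHR letters start at -29 and the CCAAT letters at -73. On either strand CHR letters occurred in 71.1% of the 45 G2 and mitosis genes with a promoter and in 56.5% of the 23 of them that fell, against 15.7% of all genes that fell, 10.4% of those that rose and 9.74% of all genes tested. CCAAT letters occurred in 80.0% of the G2 and mitosis genes and in 36.9% of all genes tested. The shares over the whole mitotic list do not depend on the comparison of cells. The E2F letters GGCGGGAA occurred in 7.25% of the genes that fell, in 1.9% of those that rose and in 5.09% of all.

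While cell division genes were lower, a set of histone genes was higher. Histone genes of the clusters on chromosomes 6 and 1 mostly make messages that end in a stem-loop in place of a poly(A) tail and are made in S phase, and some of them also give polyadenylated messages. Of the 14 histone genes in the list 5 rose and 0 fell, with a median of 0.32. H2BC12 read 102.7, 91.3 and 108.9 in control and 374.2, 371 and 373.2 in induced cells (1.84, SE 0.12, adjusted p = 2.03e-06). H2AC6 read 46.5, 28.6 and 35 against 135.2, 157.2 and 155.6 (1.90, SE 0.16, adjusted p = 1.05e-05). H2BC21 rose from 51, 36.5 and 45.6 to 142.1, 120.9 and 133 (1.48), and H2BC5, next to H2AC6 among the genes tested, from 96.6, 84.3 and 81.7 to 207.3, 249.6 and 239.2 (1.35). The linker histone gene H1-2 rose from a mean of 47.2 to 100.8 (1.06) and was array-dependent (adjusted p up to 0.0859).

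The view was widened to all 30 histone genes tested after these values were seen. Of 21 core histone genes of the clusters 5 rose and 0 fell, the fifth being H2AC25 (1.31, from 178, 169.3 and 188.7 to 492.4, 490.6 and 379.5), and 12 of the 21 lay above 0. Of the other 9 histone genes H1-2 rose and 0 fell. The variants H2AZ1 (-0.12) and H2AZ2 (-0.27), whose messages are polyadenylated, and H2AX (-0.33) did not pass. Clustered histone genes are near-identical copies, and several of these probe sets are marked by the array's maker as shared between transcripts, so which copies a signal came from is uncertain. The share of polyadenylated messages was not measured.

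**Figure D3:**
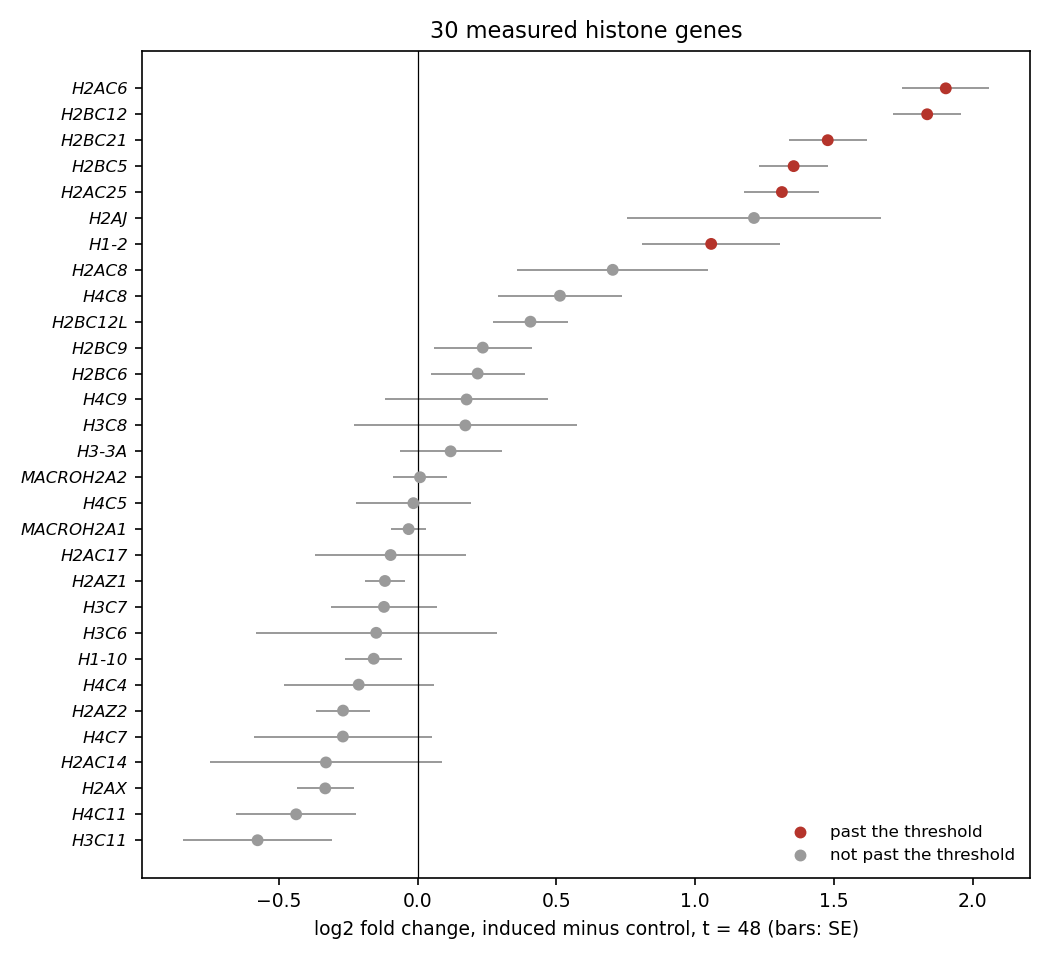
Log2 fold changes of 30 histone genes, induced minus control at t = 48, with bars of 1 SE from limma and n = 3 arrays in each group. The genes past the threshold, in red, are H2AC6, H2BC12, H2BC21, H2BC5, H2AC25 and H1-2, and the other 24 genes spread around 0.

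The promoters of H2BC12 and H2BC21 are shown because they hold, at the same place, the octamer (ATTTGCAT) that is known from H2B genes, followed by a TATA box (TATAAA), both in capitals. The H2BC12 stretch is chr6:27146859-27147008 and the H2BC21 stretch chr1:149886683-149886832 of GRCh38.p14, both on the minus strand, from RefSeq, printed 5' to 3' to the base before the annotated start.
H2BC12: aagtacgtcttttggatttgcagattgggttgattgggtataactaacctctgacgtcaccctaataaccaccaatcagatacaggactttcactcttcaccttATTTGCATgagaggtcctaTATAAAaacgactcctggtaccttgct
H2BC21: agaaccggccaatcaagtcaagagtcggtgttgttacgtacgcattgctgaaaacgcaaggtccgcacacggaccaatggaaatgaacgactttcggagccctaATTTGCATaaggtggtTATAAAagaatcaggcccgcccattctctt
The octamer starts at -46 in both. On either strand it occurred in 28.6% of the 28 histone genes with a promoter, in 7.0% of the genes that rose at least 2-fold and in 1.22% of all genes tested, and the TATA letters in 57.1%, 17.0% and 5.74% of them. Of the 21 genes with a promoter that fell at least 2-fold, 0.0% held the octamer and 33.3% the TATA letters. The genes that rose at least 2-fold include H2BC12, H2BC21 and other histone genes, so these sets overlap.

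Genes of the extracellular matrix moved both ways, with the larger changes upward. Collagens are the fibrous scaffold of the matrix, and of 33 collagens and processing enzymes 7 rose and 1 fell, with a median of 0.04. COL6A3 read 1.4, 9 and 2.1 in control and 92.6, 78 and 83.3 in induced cells (3.35, SE 0.39, adjusted p = 0.000177), and COL6A1 (0.84), a chain of the same type VI collagen, rose too, while COL6A2 (0.25) did not pass. COL13A1, a transmembrane collagen, rose from 166.7, 141.1 and 153.9 to 332.4, 372.9 and 342.2 (1.16, SE 0.08, adjusted p = 1.86e-06). COL3A1 (1.06), COL5A1 (0.76) and COL11A1 (0.72) rose, as did P3H2, which hydroxylates prolines in collagen, from 2, 12.4 and 17.9 to 58.3, 65.6 and 74.9 (2.32). PLOD2, a lysyl hydroxylase of collagen, fell (-0.65), as did its neighbour DIPK2A (-0.61). COL1A1 (0.42), COL4A1 (-0.15) and COL4A2 (-0.05) did not pass. The stromal markers given above moved with these genes in part, with 3 of 9 past the threshold and DCN between 11.3 and 24.6 in induced and 16.9 and 25.3 in control cells, and their part in the result was not tested.

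Among 31 proteoglycans and glycoproteins of the matrix 3 rose and 1 fell (12.9% called, against 8.55% of all genes), with a median of -0.12. SPOCK1, the proteoglycan testican, rose from 137.1, 124.4 and 127 to 613.6, 550.8 and 658 (2.18, SE 0.09, adjusted p = 2.19e-08). LUM, which encodes the small leucine-rich proteoglycan lumican, rose from 5.1, 9.6 and 7.6 to 73.4, 51.7 and 78.4 (2.53), and MATN2 rose (0.74). GPC3, a glypican, fell (-0.38). Of 20 integrin and laminin genes 4 rose and 0 fell. ITGA6 rose from 48.3, 50.9 and 57.3 to 168.6, 160.8 and 210.9 (1.69) and ITGB5 from 23.6, 22.6 and 17.1 to 78.4, 72.9 and 78.3 (1.65), in both cases on every kept probe set, and LAMB1 rose (0.53).

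Proteases of the matrix and their inhibitors had 6 rises and 4 falls among 28 genes. TIMP3, an inhibitor of metalloproteases, rose from 96.8, 85.2 and 75.1 to 372.6, 362.8 and 437.9 (2.13, SE 0.15, adjusted p = 2.81e-06), and its other 3 probe sets rose. Members of the ADAMTS family went in opposite directions. ADAMTS2, which trims procollagen, rose from 1.3, 3 and 0.7 to 29.3, 27.3 and 28.1 (2.30) and ADAMTS8 from 2.7, 7.1 and 10.3 to 57.5, 45.1 and 47.8 (2.27), whereas ADAMTS1 (-0.57) and ADAMTS9 (-0.42) fell, as did the array-dependent ADAMTS5, the neighbour of ADAMTS1 (-0.64, adjusted p up to 0.118). There were 2 falls without induced replicate 2 or control replicate 2. The second probe set of ADAMTS2 gave 0.62 and did not pass. PLAT, tissue plasminogen activator, rose from 56.7, 45.9 and 51.1 to 123.5, 93.5 and 105.7 (adjusted p = 0.000486), and the inhibitor gene SERPINE2 rose too (0.78).

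Of 14 genes of the mesenchymal transition 3 rose and 0 fell, with a median of 0.02. CDH11, a cadherin of mesenchyme, rose from 80, 79.5 and 84.5 to 272.2, 290.9 and 297.7 (1.76, SE 0.08, adjusted p = 5.06e-08). The fibronectin gene FN1 rose from 267.8, 298.8 and 283.9 to 654.5, 556.2 and 478.2 (0.97), and SNAI2, a transcriptional repressor that promotes delamination of neural crest cells, from 265, 207.8 and 186.3 to 389.2, 359.9 and 444.2 (0.85). TWIST1 (0.14), ZEB1 (0.02), ZEB2 (0.03), VIM (-0.13) and SNAI1 (-0.54) did not pass. In this bulk RNA, fewer cells of a type and less RNA per cell cannot be told apart, here and in every list.

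Adhesion and guidance genes of neurons changed in both directions. Of 25 neural adhesion molecules 7 rose and 4 fell, with a median of -0.10, among them TENM2 (1.11), SLITRK6 (1.06), CADM1 (0.64), NFASC (0.57) and NCAM1 (0.38) upward and CNTNAP2 (-0.52) and FLRT3 (-0.43) downward. These 7 were kept under every omission, while the falls numbered 2 in each omission but that of induced replicate 2, which left 3. Of 22 cadherins and protocadherins 3 rose and 2 fell; PCDH8 rose from 184, 198.2 and 220.2 to 596.3, 502.8 and 565.2 (1.44), FAT4 rose (0.76) and CDH10 fell (-0.47), while CDH6 (-0.75) was array-dependent (adjusted p up to 0.0564, without control replicate 3). Of 51 axon guidance genes 6 rose and 2 fell (15.7% called, against 8.55% of all genes), with a median of 0.16. SLIT3, a repellent ligand of Robo receptors, fell from 239.8, 219.9 and 208 to 78.6, 59.8 and 59 (-1.69, SE 0.12, adjusted p = 3.01e-06), though its other 2 probe sets, at -0.62 and -0.50, did not pass. SEMA5B, a semaphorin, rose from 13.5, 5.4 and 18.4 to 112.7, 116 and 86.7 (2.71), and SEMA6A (0.95), the netrin receptor gene UNC5C (1.06) and the ephrin receptor gene EPHB1 (1.15) rose.

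Genes of regulated secretion changed in a few members. Granins are the core proteins of dense-core vesicles, and of 12 granins and neuropeptides 3 rose and 1 fell. CHGB read 99.6, 85.5 and 92.5 in control and 220, 223 and 218.6 in induced cells (1.21, SE 0.09, adjusted p = 3.06e-06). SCG3 rose from 163, 147.8 and 188.9 to 317.6, 359.5 and 314.1 (0.97), and CHGA from 1087.2, 1208.9 and 1152.2 to 1983.6, 1995.9 and 2508.6 (0.90). The neuropeptide gene GAL fell from 1320.3, 1312 and 1285.4 to 887.3, 847.4 and 981.4 (-0.53). CADPS, which primes dense-core vesicles for release, rose from 26.9, 34.6 and 27.4 to 111.3, 96.3 and 120.3 (1.72), with 4 further probe sets at 1.57, -0.12, 0.58 and 0.80, of which the first passed. NRXN3, a presynaptic adhesion protein, rose (1.49) among 25 vesicle and exocytosis genes, of which 3 rose and 1 fell.

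Of 14 genes of catecholamine synthesis, transport and reception, DDC, which makes dopamine from L-DOPA, rose from 161.7, 156.8 and 174.5 to 298.2, 265.9 and 269.3 (0.74), and ADRA2A fell. These calls were 14.3% of the list, against 8.55% of all genes. DBH, the next enzyme of the pathway, read 94.4, 95 and 99.2 in control and 48.8, 61.5 and 34.2 in induced cells and did not pass (-0.96, adjusted p = 0.168), although the groups did not overlap. Of 26 neuronal cytoskeleton genes 6 rose and 1 fell, with a median of 0.22. DCX, a microtubule protein of migrating neurons, rose from 226.9, 266.5 and 302.6 to 457, 475.8 and 431.3 (0.77), and PRPH, which encodes peripherin (0.79), and CRMP1 (0.34) rose. STMN2 (1.67) was array-dependent (adjusted p up to 0.0659). DCX, PRPH and CRMP1 were the 3 kept under every omission, and 3 genes of the list rose without the weak arrays. TUBB3 (-0.20), NEFL (-0.05), NEFM (0.07) and GAP43 (0.24) did not pass.

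Ion channel and receptor subunit genes changed in both directions. Of 27 voltage-gated and related channel genes 5 rose and 1 fell, with 13 of the 27 below 0, and 3 rose without induced replicate 3. Over all 46 genes with a symbol that starts with KCN, counted after the values were seen, 6 rose and 3 fell, with a median of -0.21 and 31 below 0. KCNMA1, the large-conductance calcium-activated potassium channel, rose from 7.7, 7.8 and 9.9 to 38.1, 38.3 and 40.6 (1.70), the leak channel gene KCNK3 from 41.3, 36.1 and 43.4 to 105, 110.1 and 91 (1.24), and the sodium channel gene SCN3A from 29.2, 27.7 and 27.6 to 70.2, 61.1 and 71.4 (1.12). Of 21 neurotransmitter-gated receptor subunits 2 rose and 5 fell, with 10 of the 21 below 0. GABRP, a GABA-A subunit found mostly outside the brain, rose from 1.3, 1.6 and 0.7 to 49.3, 46.7 and 65.3 (3.20), and GABRA5 fell (-0.45).

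Of the 5 falls, 4 were of nicotinic acetylcholine receptor subunits. CHRNA3, the main ganglionic alpha subunit, fell from 1574.9, 1670.9 and 1734.4 to 1237.5, 1169 and 870.6 (-0.62, SE 0.12, adjusted p = 0.00868). CHRNA5 fell from 207.8, 245.2 and 238.7 to 170.1, 189.3 and 158.7 (-0.41) and CHRNB4 from 74.1, 79.4 and 85 to 47.9, 39.2 and 55.6 (-0.69); both were array-dependent (adjusted p up to 0.0762 and 0.149). These 3 genes follow each other on chromosome 15 and encode subunits of 1 ganglionic receptor type. CHRNA9 fell (-0.87) and was array-dependent (adjusted p up to 0.0532). CHRNB2 (0.34) did not pass. The count of falls was 2 without induced replicate 1 or control replicate 2, and 3 without induced replicate 3 or control replicate 3.

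**Figure D4:**
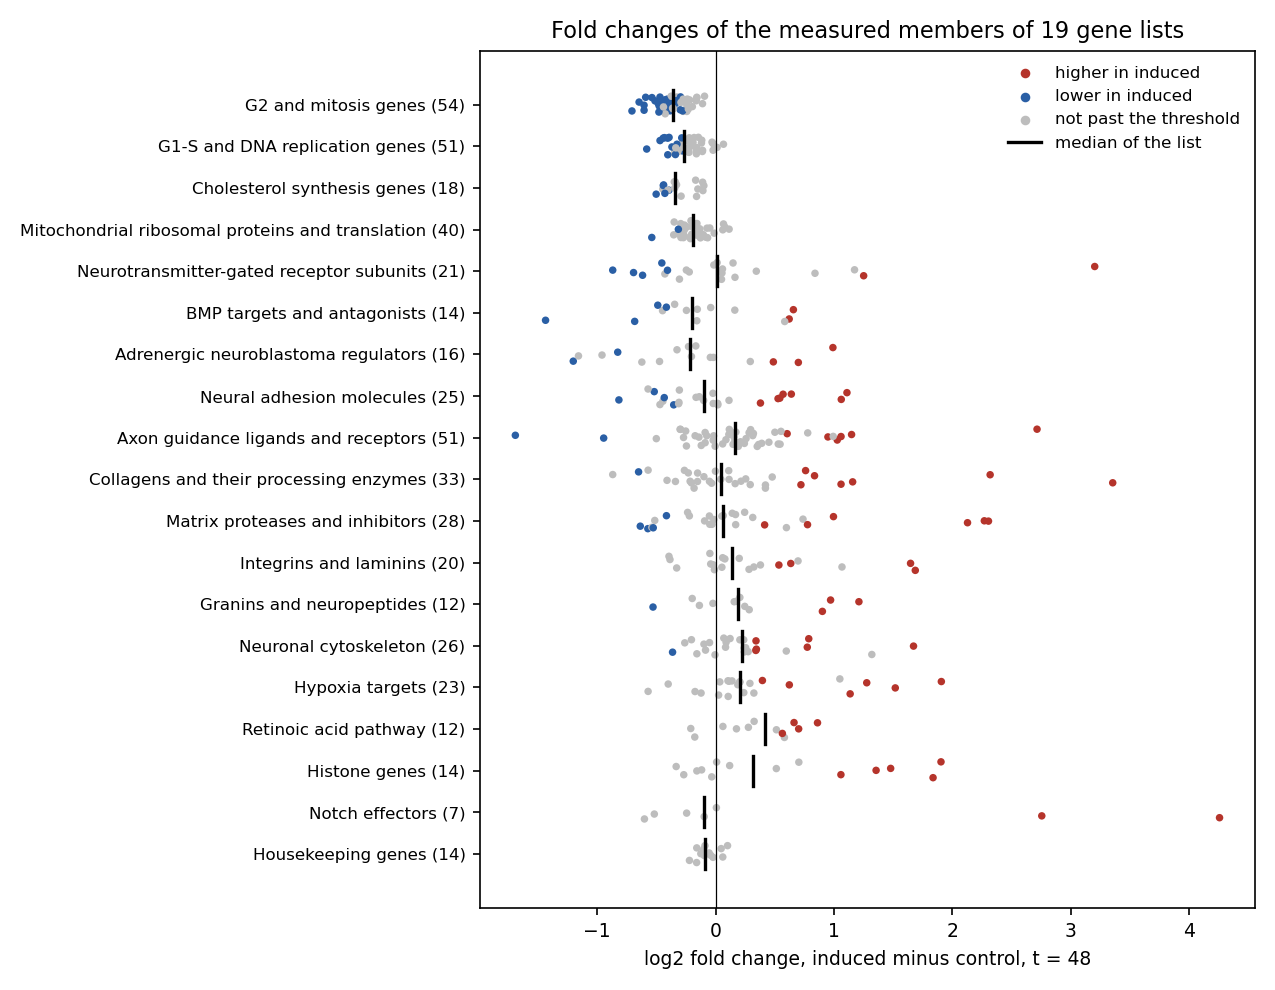
Log2 fold changes of the tested members of 19 gene lists, induced minus control at t = 48, with the number of members after each name and a black bar at the list median. Members past the limma threshold are red (higher) or blue (lower). The 54 G2 and mitosis genes lie below 0, while histone, granin and collagen genes reach far above it.

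Transcription factors that define adrenergic neuroblastoma did not move as 1 group. Of 16 such regulators 3 rose and 2 fell, with a median of -0.22. PHOX2A, a homeobox factor of noradrenergic identity, rose from 978.2, 1035.8 and 912.5 to 1560.5, 1651.8 and 1542.2 (0.70), HAND1 rose (0.49), and the receptor tyrosine kinase gene ALK rose on both probe sets, from 333.2, 387.1 and 368.6 to 773.3, 725.5 and 678.8 on the brighter (0.99, SE 0.10, adjusted p = 4.13e-05). EYA1, a transcriptional coactivator and phosphatase, fell from 918.7, 919.4 and 905.7 to 527.1, 527.4 and 486.9 (-0.83), beside ISL1. GATA3 (-0.02), HAND2 (-0.17), GATA2 (-0.33) and MYCN (-0.04) did not pass. Of the 18 HOX genes, which carry position along the body axis, 0 passed by limma and 4 had an unadjusted p under 0.05.

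Of 9 SOX factors 3 rose and 1 fell. SOX2, a factor of neural stem cells, fell from 237.7, 213.6 and 209.9 to 86, 96.4 and 65.8 (-1.37), and 2 of its other 3 probe sets also fell while the last gave 0.11. SOX9, of neural crest and cartilage, rose from 122.8, 138.2 and 118.7 to 251, 223.6 and 222.3 (0.85), and SOX11, of neuronal precursors, from 1238.9, 1253.7 and 1211.6 to 1899.7, 1911.6 and 1868.2 (0.61). Of 14 proneural factors and partners NHLH2 fell from 1242.5, 1297.9 and 1420.2 to 797, 772 and 745.7 (-0.77). MYT1 (0.97, adjusted p up to 0.0667), MYT1L (1.26, up to 0.0771) and EBF3 (-0.43, up to 0.105) were array-dependent, and NEUROG2 (-0.42) and INSM1 (0.45) did not pass. ESRRG, an orphan nuclear receptor, fell from 142.5, 152.3 and 163.4 to 72.2, 84.8 and 69.5 (-0.97).

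Secreted signals and their targets changed in a few members each. Of 25 Wnt ligands, receptors and antagonists WNT5A, a ligand of the non-canonical branch, rose on both probe sets, from 59.6, 93.4 and 86.7 to 183.8, 205.9 and 239.8 on the brighter (1.35), and SFRP1, a secreted Wnt antagonist, from 248.3, 222.2 and 216.9 to 548.1, 475.9 and 489.6 (1.12). These 2 rises were 8.0% of the list, against 8.55% of all genes called. The antagonist genes DKK1 (-0.44) and DKK3 (0.05) did not pass. None of the 6 Wnt targets, AXIN2 (0.19) and LGR5 (-0.59) among them, passed, while 3 had an unadjusted p under 0.05. Of 14 BMP targets and antagonists 2 rose and 4 fell, with a median of -0.20. ID1, an inhibitor of basic helix-loop-helix factors, fell from 674.4, 475.5 and 592.6 to 261.6, 200.3 and 174.8 (-1.44, SE 0.19, adjusted p = 0.000543), and SMAD9 fell (-0.49), while the pseudoreceptor gene BAMBI rose from 290.1, 272.5 and 276.1 to 450.1, 452.6 and 428.3 (0.66). ID2 (-0.25) and ID3 (-0.45) did not pass. ID4 (-0.68, adjusted p up to 0.109) and the antagonist gene NOG (0.62, up to 0.157) were array-dependent, and 2 genes fell without induced replicate 2 or 3 or control replicate 1. Of 19 ligands and receptors of the BMP and TGF-beta family, TGFB2 fell from 163.8, 184.4 and 192.2 to 89.5, 100.9 and 106.3 (-0.83), on all 4 of its probe sets.

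Genes of FGF and receptor tyrosine kinase signalling moved both ways, with 6 rises and 5 falls among 35 and a median of 0.00. The list holds growth factors, binding proteins and phosphatases beside receptors. Of these, 3 rises and 2 falls were kept under every omission. The rises numbered 3 without induced replicate 2 or control replicate 1 or 3, and 4 to 6 otherwise, and the falls 2 without induced replicate 3 or control replicate 2 or 3, and 3 to 4 otherwise. IGFBP5, which binds insulin-like growth factors, rose from 464.1, 492.1 and 466 to 1421.1, 1520.8 and 1945.1 (1.76, SE 0.16, adjusted p = 2.43e-05), the phosphatase gene DUSP4 rose (0.99) and SPRED2 rose (0.44). FGFR4 (-0.61) and FGF12 (-0.53) fell, though 2 more probe sets of FGFR4, at 0.31 and -0.42, did not pass. Retinoic acid drives differentiation of neuroblastoma cells in culture, and of 12 genes of its pathway 4 rose and 0 fell, with a median of 0.42. These were the synthesis genes ALDH1A3, from 52.5, 40.3 and 55 to 91.8, 83.5 and 104.6 (0.86, SE 0.11, adjusted p = 0.000462), and RDH10 (0.70), the binding protein gene CRABP2, from 291.9, 324.1 and 361.3 to 525.3, 517.5 and 507.1 (0.66), and the array-dependent CYP26B1, which degrades the ligand (0.56, adjusted p up to 0.136). The receptor genes RARA (0.33), RARB (0.58), RARG (-0.21) and RXRA (0.51) did not pass.

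Regulators inside the cell that act below receptors gave small changes in both directions. Of 27 regulators of G-protein-coupled receptors 4 rose and 2 fell, with a median of 0.01. RGS4, which speeds the turning off of G proteins, rose from 494.7, 544.2 and 757.3 to 1222.8, 1146 and 971.8 (0.91, SE 0.15, adjusted p = 0.00273), and RGS3 (0.52) rose too. RGS2 fell evenly, from 462, 451 and 433 to 312.7, 308.7 and 307.4 (-0.53), and GPSM2 fell (-0.49). The receptor kinase genes GRK5 (0.91) and GRK3 (0.52) rose, while their second-brightest probe sets gave -0.04 and -0.09. Of 28 cyclic nucleotide genes the adenylyl cyclase gene ADCY2 (0.84) and the phosphodiesterase gene PDE10A (0.57) rose and 0 fell. That is 7.14% of the list, against 8.55% of all genes called.

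Of 32 regulators of actin and small GTPases 5 rose and 3 fell, with a median of -0.05. The rises numbered 3 without induced replicate 3 or any 1 control replicate, and 4 otherwise. ARHGAP29, a GTPase-activating protein, rose from 116.1, 123.9 and 116.6 to 271.6, 266.7 and 272.2 (1.15, SE 0.07, adjusted p = 1.38e-06), opposite to ARHGAP28 of the same family. The small GTPase gene RHOB (0.69) and CDC42EP3, an effector of CDC42 (0.74), rose, and DLC1, another GTPase-activating protein, fell (-0.53). Of 18 kinesin and dynein genes of neurons 3 rose and 1 fell. KIF26B, an unconventional kinesin, rose from 59.2, 46.7 and 51.9 to 346.6, 336.3 and 350.8 (2.60, SE 0.10, adjusted p = 2.15e-08), whereas KIF21B (1.33, adjusted p up to 0.103) was dim and array-dependent, and KIF26B was the 1 rise kept under every omission. Of 32 chromatin regulators the histone demethylase genes KDM3A (0.40) and KDM5B (0.38) rose and 0 fell. That is 6.25% of the list, against 8.55% of all genes called.

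Metabolic genes gave small differences. All 18 cholesterol synthesis genes lay below 0, with a median of -0.34, and 5 of them fell, of which NSDHL, from 219.4, 219.3 and 213.6 to 162.3, 155.5 and 139.1 (-0.50), and SC5D, from 255.1, 261.1 and 240.6 to 179.6, 200.1 and 174.1 (-0.44), were kept under every omission. The count was 2 without induced replicate 3 or control replicate 3, 3 without control replicate 1 or 2 or without the weak arrays, and 0 with arrays centred on all probe sets, where all 18 were again below 0. Of 17 fatty acid genes 0 passed by limma, and 3 had an unadjusted p under 0.05. Of 40 genes of mitochondrial translation 2 fell (5.0%, against 8.55% of all genes called), MRPL24 (-0.54, adjusted p up to 0.0631) and TFAM (-0.31, up to 0.133), both array-dependent. The list median was -0.19, and 36 of the 40 lay below 0. So did 26 of 31 oxidative phosphorylation genes, 11 of 14 housekeeping genes and 6710 of all 12880 genes. Of 44 genes with a symbol that starts with RPL, counted after the values were seen, 40 lay above 0. Of 20 glycolysis genes only PKM passed (5.0%, against 8.55% of all genes). It fell (-0.52), though its other probe set gave 0.12.

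Of 23 hypoxia targets 6 rose and 0 fell, and the 6 were kept under every omission. DDIT4, an inhibitor of the kinase mTORC1, rose from 297.1, 338.2 and 357.7 to 888.5, 920.1 and 1062.5 (1.52), NDRG1 from 34.2, 30.3 and 43.2 to 163.3, 143.9 and 136.3 (1.91), and ADM, which encodes adrenomedullin, from 14.8, 11.1 and 13.8 to 37.7, 43 and 37.2 (1.28). VEGFA rose from 73.2, 110.6 and 144.4 to 224.2, 253.2 and 237.9 (1.14), with 3 other probe sets at -0.02, 0.58 and 0.41 that did not pass, and STC1 (0.62) and KDM3A (0.40) rose. SLC2A1 (0.11), BNIP3 (0.20), EGLN3 (-0.12) and CA12 (-0.40), other well-known targets, did not pass. Of 18 imprinted genes 3 rose and 2 fell. MEST, expressed from the paternal copy, fell from 1181.4, 1147.8 and 1180.1 to 455.2, 474.4 and 407 (-1.39, SE 0.09, adjusted p = 1.38e-06), and PLAGL1 (0.46) and L3MBTL1 (0.66) rose beside CDKN1C. The other probe sets of PLAGL1 (0.55 and 0.31) and of L3MBTL1 (0.52, 1.16, 0.23 and -0.16) did not pass.

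Several lists had 0 members past the limma threshold: 20 BCL2 family and caspase genes, 28 MYC target and ribosome biogenesis genes, 21 heat shock genes, 14 housekeeping genes and 7 neurotrophin and GDNF receptor genes. Their medians lay between -0.11 and 0.02, and at an unadjusted p under 0.05 they held 1, 1, 4, 0 and 1 genes in that order.

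Position in the genome was compared as a property the arrays had not used. Placed in their order along the chromosomes, 12867 genes gave 12841 pairs of neighbours, and the next gene tested after a called gene was itself called in 10.6% of 1094 cases, against 8.55% of all genes. Of the 116 pairs in which both were called, 90 moved in the same direction and 26 in opposite ones. Part of this agreement follows from the surplus of rises among the calls (678 higher, 423 lower). Some of the 90 pairs hold a gene and a transcript named after it, such as ICA1 and ICA1-AS1 or ITPR1 and ITPR1-DT. How often called genes that are not neighbours agree was not tested. Beside the pairs already named, ALK and its neighbours CLIP4 (0.64) and YPEL5 (0.59) rose, SCG3 rose with DMXL2 (0.61), LYSMD2 (0.83) and TMOD2 (0.84), and HEY1 stands next to the array-dependent STMN2 described above. PRG2 follows P2RX3, which encodes an ATP-gated channel and was array-dependent (1.25, adjusted p up to 0.0625). The neighbours outside the lists were picked after their values were seen.

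A second probe set gave an internal comparison for part of the genes. The 638 called genes with other kept probe sets had 1223 of them, of which 1055 had the same sign and 168 the opposite one. Tested over all 30676 kept probe sets (5.13% called), 275 of the 1223 passed in the same direction and 2 in the opposite one, those of NAV2, at 0.54 on the probe set used and -1.26 on the other, and of BBIP1, at -0.35 (array-dependent, adjusted p up to 0.0892) and 0.76. Of the genes described above, AURKB, C11orf96, CD9, COL3A1, EPHB1, ESRRG, GAL, GAS1, H2BC5, KCNK3, MFNG, NSDHL, PDE10A, RDH10, SC5D, SLITRK6, UNC5C, ADCY2 and ARHGAP29 had at least 1 further kept probe set of the same sign, none of which passed; those of COL3A1 gave 0.52 and 0.82, and those of PDE10A 0.03 and 0.20. Among 4494 kept probe sets with no listed gene 125 were higher and 29 lower (3.43%), and they remain unnamed here.

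The 9 other arrays show what the induced and control cells had each moved from, with the caution that both comparisons with t = 0 share the t = 0 arrays with each other and their t = 48 arrays with the comparison above. Against t = 0, 2331 genes differed in induced cells at t = 48 (18.1%) and 109 in control cells (0.846%). HEY1, at a mean of 46.1 at t = 0, gave 4.10 against t = 0 in induced and -0.15 in control cells, and LMO4, at 1123, gave -2.48 and -0.13. H2BC12 gave 1.71 and -0.12, CHGB 1.13 and -0.08, CDC20 -0.66 and 0.04, and MEST -1.24 and 0.15. For these genes the control cells lay near their starting level.

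For other genes the control cells themselves had moved by t = 48. ID1 stood at a mean of 1808 at t = 0, and gave -1.64 in control (adjusted p = 0.00225) and -3.08 in induced cells. SFRP1 gave -0.77 in control (adjusted p = 0.0153) and 0.35 in induced cells, SNAI2 -1.09 (adjusted p = 0.00225) and -0.24, and SOX9 -0.65 (adjusted p = 0.00475) and 0.21, so these 3 genes, higher in induced than in control cells at t = 48, differed from t = 0 past the threshold in the control cells and not in the induced ones. Their induced means had been higher at t = 24, at 1243, 1044 and 480.3, than the 504.5, 397.8 and 232.3 of t = 48. ENPP2 gave 1.59 in control (adjusted p = 0.00234) and 4.61 in induced cells, RGS4, a regulator of G-protein signalling, 1.53 (adjusted p = 0.000755) and 2.43, and DCX 0.79 (adjusted p = 0.00401) and 1.56. MFNG gave 1.09 in control (adjusted p = 0.000431) and 0.52 in induced cells, and MSX1 -1.05 (adjusted p = 0.00501) and -0.40.

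**Figure D5:**
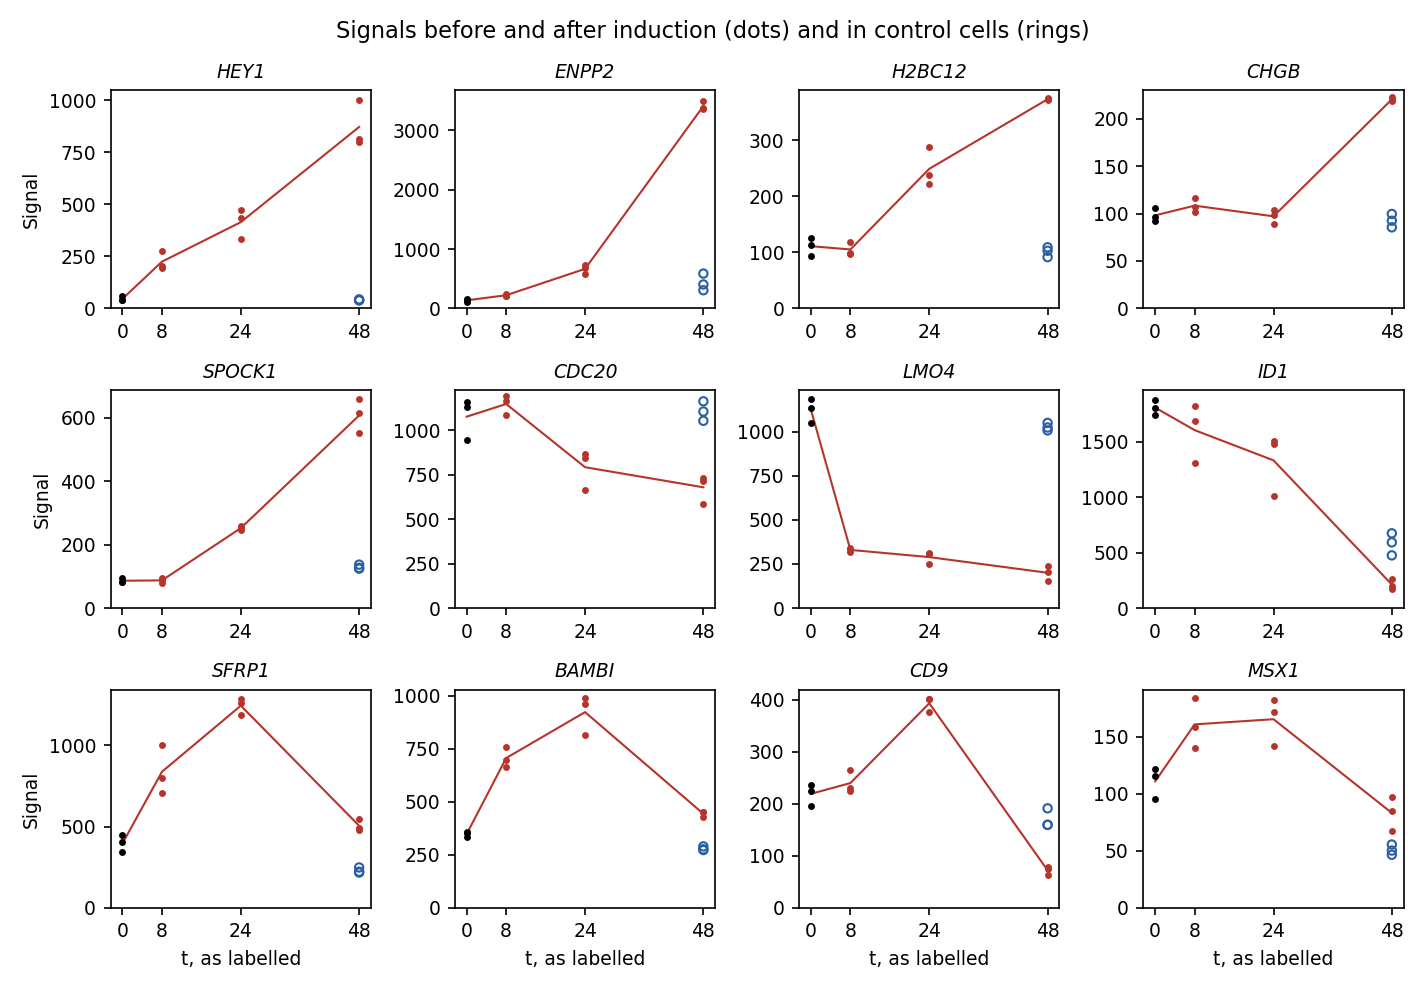
Signals of 12 genes against t as labelled, on linear axes from 0, with black dots at t = 0, red dots for induced cells, a red line through their means and blue rings for control cells at t = 48 (3 arrays each). HEY1, ENPP2 and SPOCK1 were highest at t = 48, SFRP1, BAMBI and CD9 had higher means at t = 24 than at t = 48, and ID1 was lower in control cells at t = 48 than at t = 0.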

How the data were processed

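Gene expression was measured on 15 Affymetrix arrays of IMR32 cells, 3 for each of 5 groups read from the sample titles. The deposited values are intensities, MAS5 signals made with GCOS per the submitters' processing notes, and per the values the authors scaled each array to a 2% trimmed mean of 100.01. The genome build behind the array is not given in the sources used here. Probe sets were named through the platform annotation, kept where the signal reached the array median on at least 3 arrays, and the brightest stood for its gene, leaving 12880 genes. Values were taken as log2(signal + 5.16), the offset being the mean lower quartile, and 5 group means were fitted with limma 3.58.1 in R 4.3.3, with eBayes, two-sided tests and Benjamini-Hochberg adjustment at 0.05. Precision is limited by the number of arrays and by signal: the median SE of a log2 fold change was 0.275 among the 3220 genes of lowest and 0.0961 among those of highest mean signal. The step was tested on simulated data for this comparison, with 200 genes changed and independent normal noise. There 81% of 2-fold and 33% of 1.41-fold changes were recovered over 12880 genes. Of the calls 8.8% were false, more than the threshold of 0.05 allows for. In the data 1101 genes were called, so these rates need not carry over.

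The arrays compared, the gene lists and the rule for named genes were chosen with earlier results of these data known. That rule names the 25 largest rises and 25 largest falls past the threshold without overlap of the groups, up to 4 genes of each list by size, and MSX1, MYCN, DKK1, DKK3, SFRP1, NOTCH3, DLK1, HES1, HEY1 and LMO4; members that did not pass are named beside them, and array-dependent genes of the rule outside the main lists are left out of the text, as is 1 gene that is not reported here. Promoter letters were counted from 250 bases before to 50 bases after the start in a RefSeq table of GRCh38.p14. Figures were drawn with matplotlib 3.10.9. Alternatives were other offsets, scalings, filters, choices of probe set, variance models and thresholds, fits on fewer arrays and a replicate block. Same-numbered induced and control arrays deviated with correlations of 0.07, 0.01 and 0.01, so the numbers were not taken to pair them.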

Additional observations from a re-analysis of the deposited data

How the results depend on the processing

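The 1101 calls (678 higher, 423 lower) moved by over 1.5 times under these settings, except for the omission of induced replicate 1, which stayed within that. They numbered 566 (361 higher, 205 lower) with arrays centred on the median of all probe sets, 684 (443 and 241) with no filter on low signal, 617 (421 and 196) with only the 6 arrays in the fit and 441 (305 and 136) at an adjusted p of 0.01. With the second-brightest probe set, which fewer genes have, they numbered 292 (187 and 105), and 73 changed at least 2-fold in place of 169; the other causes were not tested. Leaving out 1 array gave 816, 709 and 625 calls without induced replicates 1, 2 and 3, and 674, 659 and 707 without control replicates 1, 2 and 3. Across these omissions 408 to 498 genes were higher, 213 to 318 lower and 151 to 172 changed at least 2-fold. The other alternatives kept the total within 1.5 times, between 783 without the weak arrays and 1278 with a variance trend and robust fit.

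With the replicate number as a block, 899 genes passed (560 higher, 339 lower) and 167 changed at least 2-fold; since the arrays share no more than a number, this is not a paired analysis. The sign turned with the second-brightest probe set for MAML3 (-0.15), FGFR4 (0.31), MSX1 (-0.42), GRK5 (-0.044), GRK3 (-0.0913), S1PR3 (-0.38), PKM (0.12), JUN (0.37) and HLA-E (0.55), and for HLA-E with the mean of probe sets (0.0794). The arrays compared number 3 in each group, which limits what small changes could pass.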
